A study of Mus musculus with 4 samples.

Results

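Dclk1 and 9 genes for the actin bundles of microvilli were followed across 4 sorted populations of mouse intestinal tumour cells. The 10 genes were taken by name, with every array probe whose transcript accession belongs to them. They are 10 of the 22907 genes named on the arrays, and 18 probes measured them. Dclk1, Avil and Espn were taken as tuft cell genes, and Vil1, Pls1, Eps8, Myo1a, Cdhr2, Cdhr5 and Ush1c as brush border genes of enterocytes, the absorptive cells of the intestinal lining. The comparison asked how the tuft cell genes and the brush border genes differ in their levels between cells sorted for and against a tuft cell marker.

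The cells were EpCAM+ epithelial tumour cells of the intestine of Lgr5CreERT2/+; Ctnnb1lox(ex3)/ox(ex3) mice, collected 14 days after tamoxifen. They were sorted by Lgr5, a receptor of crypt stem cells, and by a tuft marker that the series' design text gives as IL17RB, a receptor subunit for interleukins. The sort gave doubly positive cells (Lgr5+ tuft marker+), Lgr5+ cells without the marker (Lgr5+ tuft marker-), Lgr5- cells with it (Lgr5- tuft marker+) and doubly negative cells (Lgr5- tuft marker-). Each was measured on 1 array, with no replicates, so no difference given here has a test. All 4 populations carry the same alleles, received tamoxifen and passed the EpCAM gate, and no normal epithelium was analysed here. CreERT2 is expressed from the Lgr5 locus, so the recombination of Ctnnb1, which stabilises beta-catenin, is started in cells that express Lgr5. The number of animals behind each sort and the segment of the gut are not given in the sources used here.

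The microvillus is a finger of plasma membrane around a core of parallel actin filaments that bundling proteins hold together. In enterocytes, microvilli stand packed in a brush border, where a myosin ties the core to the membrane and protocadherins link the tips of neighbouring microvilli. Tuft cells, sparse sensors of luminal chemicals in the gut epithelium, carry long, thick apical microvilli whose actin rootlets reach deep into the cell, and Dclk1 and Avil are widely used to mark them in the mouse intestine. Villin and fimbrin, the products of Vil1 and the plastin genes, are known from the bundles of both cell types.

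Promoter windows are shown for genes of both groups because their levels differed in how they followed the tuft marker sort. The windows run from 250 bases before to 50 bases after a start site, as RefSeq places it in build GRCm38.p6, and all 5 are on the plus strand. RefSeq held 12 such windows for 9 of the 10 genes, and Eps8 had no entry. Dclk1 has 2 start sites far apart on its chromosome, and both are printed. Capitals mark the only motif match in these 5 windows, for HNF1 in the Cdhr2 window.
Dclk1, first window, chr3:55242114-55242413: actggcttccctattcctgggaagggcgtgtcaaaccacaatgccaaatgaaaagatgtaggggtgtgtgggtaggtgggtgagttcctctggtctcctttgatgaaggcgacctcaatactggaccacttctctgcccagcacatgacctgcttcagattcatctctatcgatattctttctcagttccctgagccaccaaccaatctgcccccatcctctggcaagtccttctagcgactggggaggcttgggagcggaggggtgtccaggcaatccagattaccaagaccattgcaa
Dclk1, second window, chr3:55461478-55461777: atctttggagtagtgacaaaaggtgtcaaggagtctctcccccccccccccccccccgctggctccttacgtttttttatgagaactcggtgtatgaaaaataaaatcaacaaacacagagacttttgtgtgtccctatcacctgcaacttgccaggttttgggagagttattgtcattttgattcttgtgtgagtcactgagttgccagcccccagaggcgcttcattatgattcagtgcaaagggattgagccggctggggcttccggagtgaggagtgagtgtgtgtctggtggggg
Avil, chr10:127000459-127000758: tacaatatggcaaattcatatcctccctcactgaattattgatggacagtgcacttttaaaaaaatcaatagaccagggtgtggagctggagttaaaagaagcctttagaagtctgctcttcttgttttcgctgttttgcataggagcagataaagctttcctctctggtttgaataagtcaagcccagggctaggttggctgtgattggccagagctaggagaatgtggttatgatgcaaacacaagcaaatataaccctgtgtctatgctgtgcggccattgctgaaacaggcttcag
Vil1, chr1:74409134-74409433: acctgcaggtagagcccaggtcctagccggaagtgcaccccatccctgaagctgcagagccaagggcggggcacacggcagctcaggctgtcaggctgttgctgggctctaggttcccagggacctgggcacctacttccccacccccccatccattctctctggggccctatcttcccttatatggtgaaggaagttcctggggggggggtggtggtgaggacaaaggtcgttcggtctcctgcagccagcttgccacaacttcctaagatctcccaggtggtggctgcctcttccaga
Cdhr2, chr13:54701213-54701512: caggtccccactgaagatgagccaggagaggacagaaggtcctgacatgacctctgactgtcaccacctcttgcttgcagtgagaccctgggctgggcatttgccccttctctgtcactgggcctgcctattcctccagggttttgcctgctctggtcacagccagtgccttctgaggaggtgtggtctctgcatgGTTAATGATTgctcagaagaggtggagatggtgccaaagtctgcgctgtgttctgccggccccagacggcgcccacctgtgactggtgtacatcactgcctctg
The search covered both strands for 7 motifs, chosen after the values had been seen. They were ATGCAAAT, the octamer bound by POU factors (in 1.74% of 32851 RefSeq promoter windows of the same length), GAGGAAGT, bound by SPIB (3.2%), CAAAGTCCA for HNF4 (0.475%), the HNF1 motif (0.399%), TTTATNG for CDX factors (10.9%), CTTTGAA for TCF factors (5.14%) and the TATA box TATAAA (13.6%). The HNF1 motif lay in the Cdhr2 window, with its first base 54 bases before the start site. TTTATNG lay once, on the opposite strand, in 1 of the 3 Espn windows, which is not printed. None of the other windows of the members held any of these letters, and no motifs overlapped. Of the printed windows, Avil had the lowest share of G and C, with 43% against a median of 52.7% over all windows. The Dclk1 windows had 52.7% and 50.3%, the Cdhr2 window 58% and the Vil1 window 61.7%.

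Levels are log2 fluorescence intensities of the gene's brightest probe minus the 75th percentile of the same array, so a level of 0 lies at that percentile and a difference of 1 between arrays is 2-fold. Probes differ in brightness for reasons of their own, so levels are compared between populations and not between genes. The error of a value is the scanning software's error of its spot, carried to log2. These errors were 0.14 to 0.15 for a level and 0.20 to 0.21 for a difference of the 10 genes, and they cover the reading of the spot but not the spread between animals or sorts. All 10 genes were well above background on all 4 arrays by their brightest probe. In RNA from a sorted population, fewer cells of a type and less RNA per cell cannot be told apart.

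The arrays gave 15324 to 17154 genes above background, and no spot was saturated. Lgr5 had a level of -0.80 in Lgr5+ tuft marker+ cells, -0.81 in Lgr5+ tuft marker- cells and -3.20 in Lgr5- tuft marker- cells, and in the Lgr5- tuft marker+ cells its signal was not well above background. Il17rb, which encodes the sorted tuft marker, had -0.39 and 0.11 in the Lgr5+ and Lgr5- tuft marker+ cells, against -3.14 in Lgr5+ tuft marker- cells and a signal not well above background in the doubly negative cells. Both sorted genes thus followed their labels. Epcam had 5.01 in Lgr5+ tuft marker+, 5.21 in Lgr5+ tuft marker-, 4.50 in Lgr5- tuft marker+ and 5.55 in Lgr5- tuft marker- cells. The tuft cell markers other than Dclk1, Avil and Espn had a log2 summed signal of 6.12 in Lgr5+ tuft marker+ cells against 3.48 in Lgr5+ tuft marker- cells, and of 5.83 in Lgr5- tuft marker+ cells against 2.39 in Lgr5- tuft marker- cells.

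Dclk1, Avil and Espn were all far higher in cells sorted for the tuft marker than in those sorted against it, in both Lgr5 classes. The median log2 difference of these 3 genes was 3.34 within Lgr5+ and 3.59 within Lgr5-, where the medians over all measured genes were 0.00 and 0.08. In both pairs all 3 passed 2-fold in favour of tuft marker+ cells, where 10.3% of 17499 genes did within Lgr5+ and 16.3% of 17908 genes within Lgr5-. Over the 16755 genes measured in both pairs, 796 or 4.75% were at least 2-fold higher in both.

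Dclk1 encodes a microtubule-associated protein kinase. Its level was 4.20 in Lgr5+ tuft marker+ cells, against 0.72 in Lgr5+ tuft marker- cells. It was 3.79 in Lgr5- tuft marker+ cells, against -0.13 in Lgr5- tuft marker- cells. Dclk1 was therefore high in both tuft marker+ populations and low in both others, with a log2 difference of 3.48 ± 0.20 (11.2-fold) within Lgr5+ and 3.93 ± 0.21 (15.2-fold) within Lgr5-. It ranked 140 from the top of 17499 genes within Lgr5+ and 141 of 17908 within Lgr5-. The neighbouring levels in the order of the populations all lay further apart than the error of their difference, the closest being the 2 tuft marker+ populations at 0.41. The order of these 2 depends on the probe and the scaling. Lgr5+ minus Lgr5- there was -0.21 to 0.34 by the other Dclk1 probes, and -0.14 with arrays scaled to the median of epithelial markers.

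Avil encodes advillin, a villin family protein that bundles and severs actin filaments. Its level was 3.33 in Lgr5+ tuft marker+ cells, against -0.01 in Lgr5+ tuft marker- cells, and 2.82 in Lgr5- tuft marker+ cells, against -0.77 in Lgr5- tuft marker- cells. The populations stood in the same order as for Dclk1. The log2 difference was 3.34 ± 0.21 (10.1-fold) within Lgr5+ and 3.59 ± 0.21 (12-fold) within Lgr5-.

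Espn encodes espin, which bundles actin in microvilli and in the stereocilia of hair cells. Its level was 2.36 in Lgr5+ tuft marker+ cells, against -0.62 in Lgr5+ tuft marker- cells, and 2.49 in Lgr5- tuft marker+ cells, against 0.57 in Lgr5- tuft marker- cells. The 2 tuft marker+ levels were apart by 0.13, less than the error, while the tuft marker- levels were apart by 1.19. The log2 difference was 2.99 ± 0.21 (7.93-fold) within Lgr5+ and 1.93 (3.80-fold) within Lgr5-.

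The probes of these genes agreed in direction except for 1 Espn probe. Of the 4 Dclk1 probes, the others gave log2 differences of 2.68 to 4.11 within Lgr5+. Within Lgr5-, 2 of them gave 5.0 and 4.72, and the dimmest, which in the Lgr5- tuft marker- cells did not stand well above background, gave a difference of at least 4.43 (at least 21.6-fold). The brightest Dclk1 probe thus had the smallest difference within Lgr5-. The second Avil probe gave 2.79 within Lgr5+ and 3.68 within Lgr5-. The second Espn probe gave 2.5 and 2.03, whereas the third, the dimmest, gave 1.04 within Lgr5+ and -0.17 within Lgr5-, where its error was larger than the difference. An "at least" value sets the bright side against the higher of the dim probe's own signal and the dimmest signal of that array that was well above background.

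**Figure D1:**
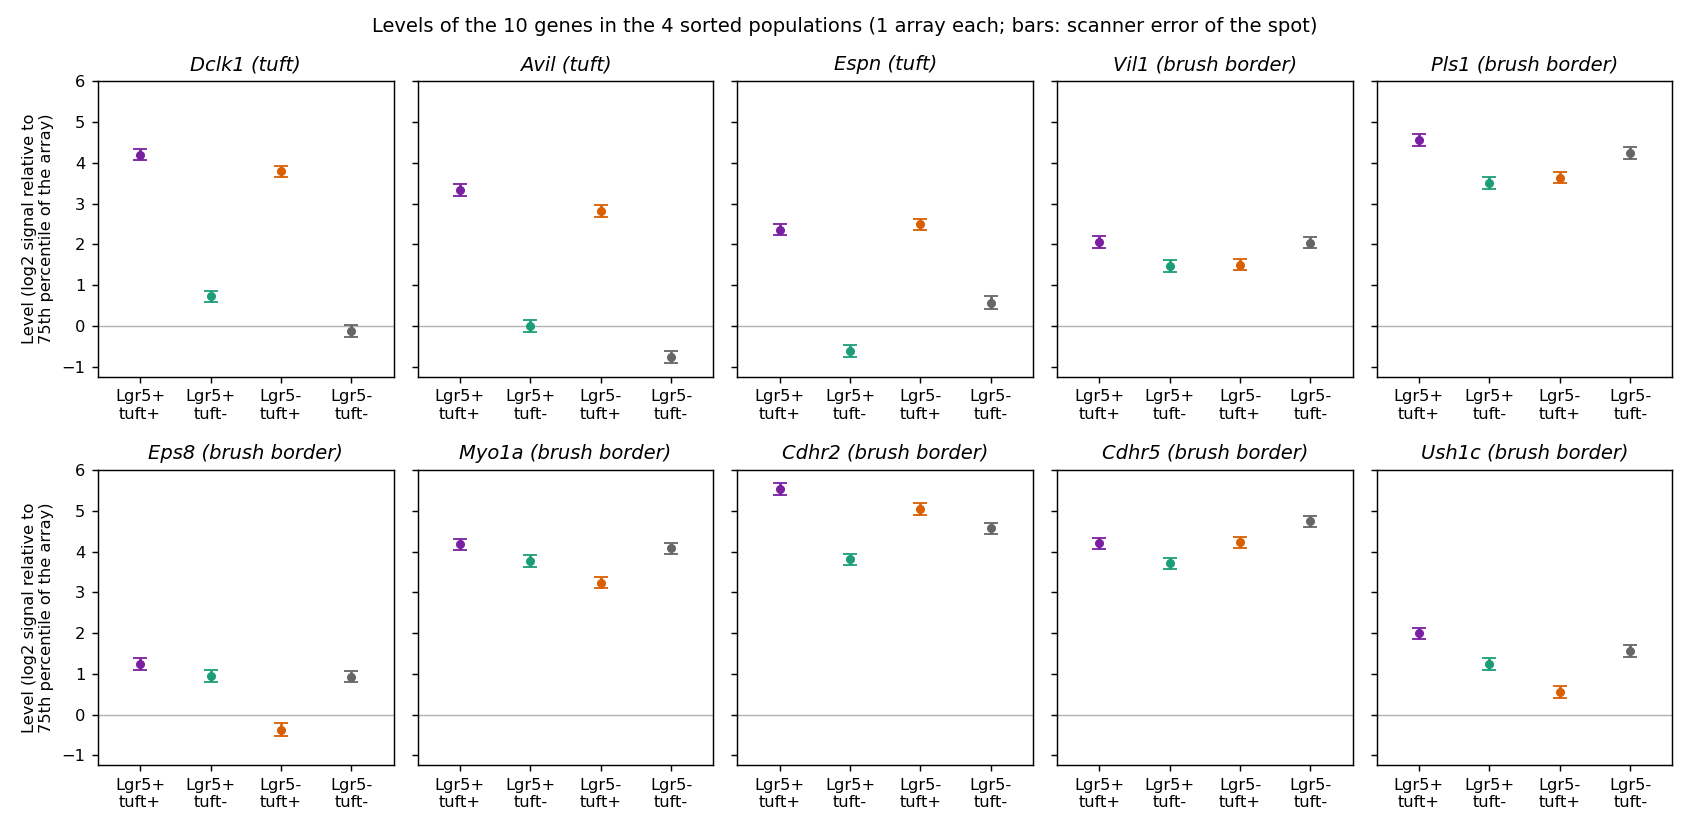
Level of each of the 10 genes (log2 signal minus the array's 75th percentile) in the 4 sorted populations, with tuft+ and tuft- standing for tuft marker+ and tuft marker-. Each point is 1 array and each bar is the scanner's error of the spot; Dclk1 sits at 4.20 and 3.79 in the tuft marker+ populations, while Vil1 stays between 1.47 and 2.06 in all 4.

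The 7 brush border genes differed far less between the sides of the tuft marker sort, and 6 of them had differences of opposite sign in the 2 Lgr5 classes. Within Lgr5+ all 7 were higher in tuft marker+ cells, with a median log2 difference of 0.59, although Ush1c was lower when both its probes were averaged. Of the 7, Pls1 and Cdhr2 were at least 2-fold higher, where 10.3% of all genes were, and none was at least 2-fold lower, where 8.19% of all genes were. Pls1 fell short of 2-fold after another background correction, normexp (0.88). Within Lgr5- the median was -0.60, Cdhr2 alone was higher, and Eps8 alone was at least 2-fold lower, where 12.2% of all genes were lower and 28.6% apart by at least 2-fold. With the arrays scaled to the median of 6 epithelial markers instead, a scaling added after the data had been seen that moves the median of all genes within Lgr5- up by 1.08, the brush border median was 0.48 and 5 of the 6 lower genes, all but Eps8, came out higher in tuft marker+ cells. Eps8 was at -0.22 under that scaling, far short of 2-fold, and just short of it in the authors' value table, while with arrays scaled to their median Myo1a (-1.07) and Ush1c (-1.23) were 2-fold lower too. The signs within Lgr5+ stayed the same under that scaling, with a median of 0.69.

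Of the 7 genes, 3 encode proteins that bundle or cap actin. Vil1 encodes villin, which bundles filaments and severs them when calcium is high. Its level was 2.06 in Lgr5+ tuft marker+ cells, against 1.47 in Lgr5+ tuft marker- cells, and 1.5 in Lgr5- tuft marker+ cells, against 2.04 in Lgr5- tuft marker- cells. The 2 high levels, of the doubly positive and doubly negative cells, were apart by 0.02 and the 2 low ones by 0.03, within the error. Such closeness of levels, here and for the other genes, depends on the scaling. The median level of the epithelial markers was 4.47 in doubly positive and 5 in doubly negative cells. It was 4.57 in Lgr5+ tuft marker- and 3.92 in Lgr5- tuft marker+ cells. The log2 difference of Vil1 was 0.59 within Lgr5+ and -0.54 within Lgr5-, 1.51-fold higher and 1.46-fold lower.

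Pls1 encodes plastin 1, also called fimbrin, a bundler of the microvillus core. Its level was 4.56 in Lgr5+ tuft marker+ cells, against 3.51 in Lgr5+ tuft marker- cells, and 3.64 in Lgr5- tuft marker+ cells, against 4.24 in Lgr5- tuft marker- cells. Within Lgr5+ it was 2.06-fold higher in tuft marker+ cells (a difference of 1.05 ± 0.20 on the log2 scale) and 1.51-fold lower within Lgr5- (-0.60). The 2 lower levels were apart by 0.13, within the error.

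Eps8 encodes an actin capping and bundling protein at the tips of microvilli. Its level was 1.24 in Lgr5+ tuft marker+ cells, against 0.95 in Lgr5+ tuft marker- cells, and -0.37 in Lgr5- tuft marker+ cells, against 0.93 in Lgr5- tuft marker- cells. The Lgr5- tuft marker+ cells stood apart below the other 3 populations. The size of that gap depends on the scaling, as the difference from the doubly negative cells was -0.22 with the epithelial scaling. The difference was 0.29 within Lgr5+ and -1.29 within Lgr5- (2.45-fold lower), and the second Eps8 probe gave 0.36 and -1.01.

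Myo1a encodes the class I myosin that links the actin core to the surrounding membrane. Its level was 4.18 in Lgr5+ tuft marker+ cells, against 3.77 in Lgr5+ tuft marker- cells, and 3.24 in Lgr5- tuft marker+ cells, against 4.08 in Lgr5- tuft marker- cells. As with Eps8, the Lgr5- tuft marker+ cells were lowest. With the epithelial scaling they were not, as Myo1a was then 0.24 higher in them than in the doubly negative cells. The difference was 0.41 within Lgr5+ (1.33-fold higher) and -0.84 within Lgr5- (1.79-fold lower).

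The adhesion complex between microvillus tips is made by 2 protocadherins and their scaffold. Cdhr2, one of the protocadherins, was the brush border gene most like the tuft cell genes. Its level was 5.54 in Lgr5+ tuft marker+ cells, against 3.81 in Lgr5+ tuft marker- cells, and 5.05 in Lgr5- tuft marker+ cells, against 4.57 in Lgr5- tuft marker- cells. It was 3.33-fold higher in tuft marker+ cells within Lgr5+ (1.74 ± 0.20, rank 663 from the top) and 1.4-fold higher within Lgr5- (0.49 ± 0.20).

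Cdhr5 encodes the protocadherin that binds Cdhr2. Its level was 4.20 in Lgr5+ tuft marker+ cells, against 3.71 in Lgr5+ tuft marker- cells, and 4.23 in Lgr5- tuft marker+ cells, against 4.74 in Lgr5- tuft marker- cells. The 2 tuft marker+ levels lay within the error of each other, at 0.02 apart, but Lgr5+ minus Lgr5- was -0.57 there with the epithelial scaling. The differences were 0.50 within Lgr5+ and -0.52 within Lgr5-, about the same size in opposite directions. Within Lgr5- the sign was opposite to that of its binding partner, Cdhr2. With the epithelial scaling both were positive there, with 0.56 for Cdhr5 and 1.56 for Cdhr2.

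Ush1c encodes harmonin, the scaffold that gathers the protocadherins at the tip. Its level was 1.99 in Lgr5+ tuft marker+ cells, against 1.24 in Lgr5+ tuft marker- cells, and 0.56 in Lgr5- tuft marker+ cells, against 1.56 in Lgr5- tuft marker- cells. The difference was 0.75 within Lgr5+ (1.68-fold higher) and -0.99 within Lgr5- (1.99-fold lower). A second, dimmer Ush1c probe, made for transcript NM_001291182, disagreed within Lgr5+. It was not well above background in either tuft marker+ population, and was at least 4.23-fold lower there within Lgr5+ and at least 1.43-fold lower within Lgr5-. With both probes averaged, the Ush1c difference within Lgr5+ was -0.67, so its direction in that pair depends on the probe.

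**Figure D2:**
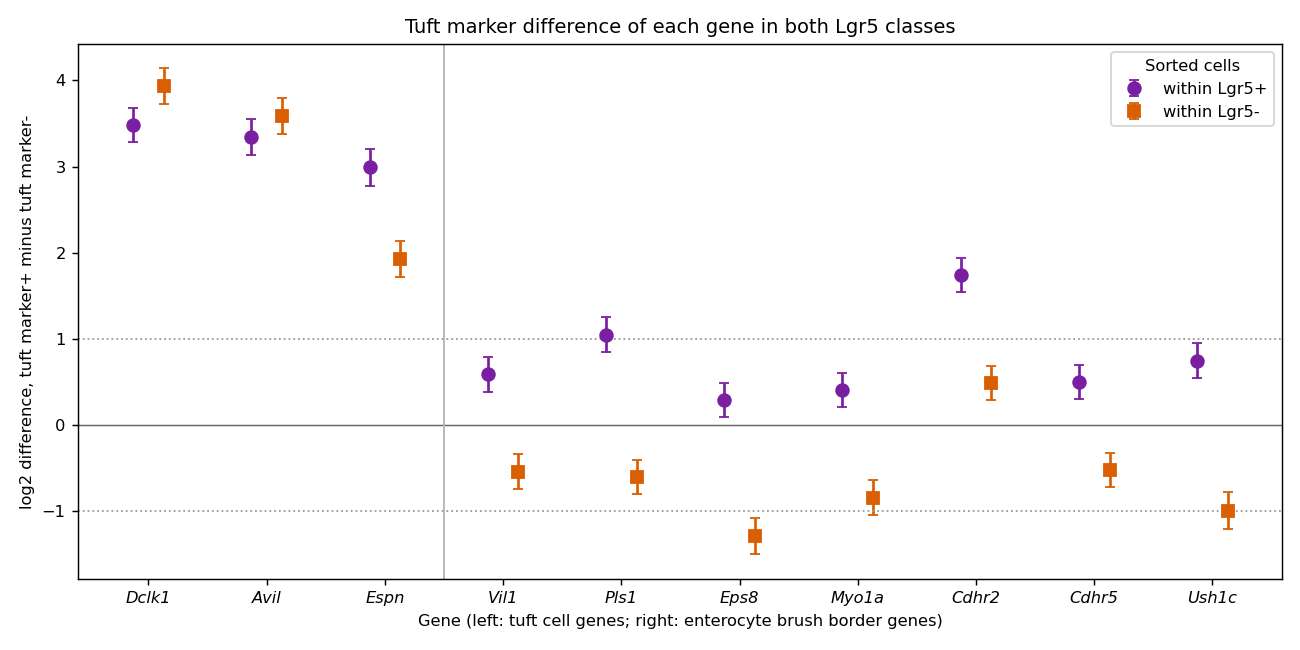
Log2 difference of each gene, tuft marker+ minus tuft marker-, within Lgr5+ (circles) and within Lgr5- (squares), with bars for the scanner's error and dotted lines at 2-fold. The 3 tuft cell genes lie at 1.93 to 3.93 in both classes; 6 brush border genes lie above 0 within Lgr5+ and below 0 within Lgr5-, a sign that turned within Lgr5- for all of the 6 but Eps8 when arrays were scaled to the epithelial markers.

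Set against each other by the brightest probe of each gene, the 2 groups of these 10 genes did not overlap in either pair. The lowest tuft cell gene, Espn, had a difference of 2.99 within Lgr5+ and 1.93 within Lgr5-. The highest of the 7 brush border genes, Cdhr2, had 1.74 and 0.49. Of all genes, 98.8% within Lgr5+ and 95.5% within Lgr5- had a smaller difference than Espn, against 96.2% and 67.4% for Cdhr2. Genes outside the 7 did overlap with Espn. Tmigd1, another brush border gene, had 2.52 within Lgr5-, and the enterocyte marker Apoa4 had 3.12 within Lgr5+. The dimmest Espn probe (1.04 and -0.17) lay below Cdhr2 in both pairs. The gap between the group medians (3.34 against 0.59 within Lgr5+, and 3.59 against -0.60 within Lgr5-) does not depend on the factor each array is scaled by, which moves all its genes alike. A difference that was positive within Lgr5+ and negative within Lgr5- was seen in 6 of the 7 brush border genes, or 85.7%, in 0 of the 3 tuft cell genes, and in 4257 of the 16755 genes measured in both pairs, or 25.4%. The tuft marker difference within Lgr5+ minus that within Lgr5- had a median of 1.25 over the brush border genes and was positive in all 7, from 1.01 for Cdhr5 to 1.74 for Ush1c, each with an error of 0.29. With its 2 probes averaged, Ush1c was at 0.09, within that error. Over all genes its median was 0.03, with 50.8% positive, and for the tuft cell genes it was -0.45 for Dclk1, -0.25 for Avil and 1.06 for Espn. Scaled to the epithelial markers, the brush border median was 0.27. That scaling moves this value of all genes alike, so the gap to the median over all genes does not depend on it.

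**Figure D3:**
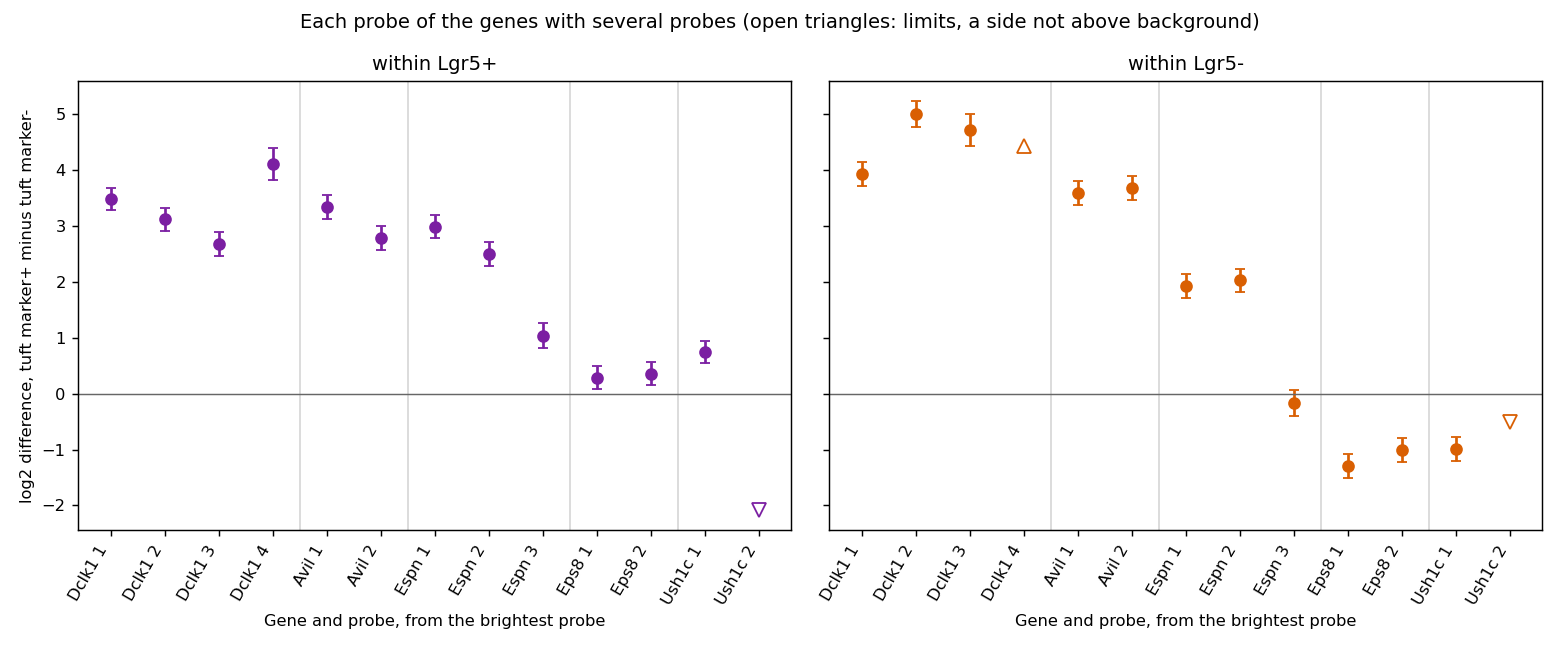
Log2 difference, tuft marker+ minus tuft marker-, of every probe of the 5 genes with several probes, numbered from the brightest, within Lgr5+ (left) and within Lgr5- (right). Bars are scanner errors and open triangles are limits; the third Espn probe (1.04 and -0.17) and the second Ush1c probe (lower by at least 2.08 within Lgr5+) stand away from the other probes of their genes.

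The Lgr5 sort gave smaller differences of the tuft cell genes than the tuft marker sort, and differences of opposite sign of 5 brush border genes in the 2 tuft marker classes. These comparisons use the same 4 arrays as those above. Within tuft marker+ cells, Lgr5+ minus Lgr5- was 0.41 for Dclk1 (1.33-fold), 0.51 for Avil and -0.13 for Espn by their brightest probes. None of these values reached 2-fold, where 20.3% of 17622 genes were at least 2-fold apart. The second Espn probe gave -0.35, while the third, the dimmest, gave 1.06, past 2-fold. The other Dclk1 probes gave -0.21 to 0.34. Within tuft marker- cells it was 0.85 for Dclk1 (1.81-fold higher), 0.76 for Avil and -1.19 for Espn, which was 2.28-fold lower in Lgr5+ cells, where 5.24% of 17525 genes were at least 2-fold lower. In that pair 2 other Dclk1 probes gave 2.23 and 1.82, and Dclk1 passed 2-fold with all its probes averaged (1.89) and with arrays scaled to the epithelial markers (1.29). The other Espn probes gave -0.83 and -0.16, and Espn fell short of 2-fold with probes averaged (-0.72), after normexp (-0.89) and with the epithelial scaling (-0.76). With the arrays scaled to the epithelial markers, the small values of Dclk1, Avil and Espn within tuft marker+ became -0.14, -0.04 and -0.67.

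Within tuft marker+ cells, 6 of the 7 brush border genes were higher in Lgr5+ cells, with a median log2 difference of 0.91, and Eps8 (1.61, 3.04-fold) and Ush1c (1.43, 2.69-fold) were at least 2-fold higher, where 8.86% of all genes were. Ush1c fell short of 2-fold with its probes averaged (0.83) and with the epithelial scaling (0.88). Myo1a had 0.94, Pls1 0.91, Vil1 0.56, Cdhr2 0.49 and Cdhr5 -0.02. Within tuft marker- cells the median was -0.57, Cdhr5 alone was at least 2-fold lower in Lgr5+ cells (-1.03, 2.05-fold), where 5.24% of all genes were, and none was at least 2-fold higher, where 6.44% of all genes were. Cdhr5 lay at the threshold, and fell short of it after normexp (-0.92), in the authors' value table (-0.96), with the percentile taken over probes above background on all arrays, and with the epithelial scaling (-0.60). Cdhr2 had -0.76 there, Pls1 -0.73, Vil1 -0.57, Myo1a -0.31, Ush1c -0.31 and Eps8 0.02. Scaled to the epithelial markers, the medians were 0.37 and -0.14. Cdhr2 then turned to -0.06 and Cdhr5 moved to -0.57 within tuft marker+, and Myo1a and Ush1c turned to 0.12 each within tuft marker-.

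Likeness of pattern was measured as the root mean square difference between the levels of 2 genes over the 4 populations, after each gene's own mean was subtracted. Over 14050 other genes above background on all 4 arrays, the genes most like Dclk1 were Lrmp (0.12), Avil (0.13), Spib (0.20), Tuba1a (0.21) and Gcnt1 (0.24). Espn stood at 0.97, rank 197, and Cdhr2 was the nearest brush border gene at 1.42, rank 717, with the others at 1.84 to 2.17. The genes most like Vil1 were Pdcd5 (0.01), Epn1, Gm35778 and Doc2g (0.02 each) and Tom1l2 (0.03), and Pls1 (0.17) and Myo1a (0.20) ranked 983 and 1534. Vil1 varied so little that many genes lay this close. The 3 pairs of tuft cell genes had a median of 0.88 (0.13 to 0.97), the 21 pairs of brush border genes 0.44 (0.17 to 0.94), and the 21 pairs of a tuft cell gene with a brush border gene 1.78 (0.72 to 2.17). Espn was nearer to Cdhr2 (0.72) than to Avil (0.88) or Dclk1 (0.97).

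A list of 16 other genes of microvilli was measured in full. Within Lgr5+ their median difference was 0.49, and 1 was at least 2-fold higher and 0 lower, where 10.3% and 8.19% of all genes were. Within Lgr5- the median was -0.78, with 1 at least 2-fold higher and 5 lower, where 16.3% and 12.2% of all genes were. The 1 that was higher in both was Tmigd1, an adhesion protein of the brush border, 7.56-fold (2.92) within Lgr5+ and 5.72-fold (2.52) within Lgr5-. Myo7b, the myosin of the tip complex, had -1.38 within Lgr5-, Myo5b, a motor of apical transport, -1.35, and Cobl, an actin nucleator, -1.24. Pdzk1, a scaffold of apical membrane proteins, had 0.86, Myo1e 0.77 and Baiap2l2 -0.83 within Lgr5+. Of the 16 genes, 8 or 50% were higher within Lgr5+ and lower within Lgr5-, against 25.4% of all genes measured in both pairs. Within Lgr5- the list's median is smaller in size than the 1.08 by which the epithelial scaling moves that pair.

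The enterocyte markers, digestive and fat-handling genes, were higher in tuft marker+ cells within Lgr5+, with a median of 1.53. Of the 10 measured of 11 genes, 7 were at least 2-fold higher, where 10.3% of all genes were. Apoa4, an apolipoprotein, had 3.12, Anpep, a brush border peptidase, 2.14, Apoa1 2.13 and Fabp2, a fatty acid binding protein, 1.95. Within Lgr5- their median was -0.11, and 0 were at least 2-fold higher, where 16.3% of all genes were. In that pair 4 were at least 2-fold lower, where 12.2% of all genes were, namely Sis (-1.63), Alpi (-1.23), Slc5a1 (-1.19) and Mttp (-1.06). The 5 transcription factors of enterocytes, Cdx1, Cdx2, Hnf4a, Hnf4g and Klf4, had a median of 0.08 within Lgr5+, with none at 2-fold, where 18.5% of all genes were. Within Lgr5- their median was -1.25, and Hnf4g (-1.41), Hnf4a (-1.31) and Cdx1 (-1.25) were at least 2-fold lower. The medians and the 2-fold calls of both lists within Lgr5-, higher as well as lower, depend on the scaling. The epithelial scaling moves all genes of that pair up by 1.08, so the count of 0 enterocyte markers higher there depends on it too. Among tuft cell markers, 10 of the 13 measured within Lgr5+ and 11 of the 14 measured within Lgr5- passed 2-fold upwards, with medians of 2.79 and 2.82. The shares over all genes were 10.3% and 16.3%. Trpm5, the channel of tuft cell taste signalling, had 3.46 within Lgr5+ and 5.63 within Lgr5-.

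Markers of other cells and of epithelium moved with the same sorts. The 6 epithelial markers had a median difference of 0.14 within Lgr5+ (-0.51 to 1.64) and of -0.77 within Lgr5- (-1.88 to 1.58), where Krt19 had -1.88 and Epcam -1.04, while Krt18 had 1.58. Of 10 macrophage markers, 8 passed 2-fold in favour of tuft marker+ cells within Lgr5+ and 9 within Lgr5-. The shares over all genes were 10.3% and 16.3%. The medians of the macrophage markers were 4.23 and 4.20. Their log2 summed signal was 6.14 in tuft marker+ against 3.72 in tuft marker- cells within Lgr5+, and 6.86 in tuft marker+ against 3.36 in tuft marker- cells within Lgr5-, and in Lgr5+ tuft marker- cells Adgre1, C1qa and C1qc were not well above background. Of 8 stromal markers, 5 of 5 measured did so within Lgr5+ and 8 of 8 within Lgr5-, and their log2 summed signal was 3.43 in tuft marker+ against 0.28 in tuft marker- cells within Lgr5+, and 5.10 in tuft marker+ against 0.50 in tuft marker- cells within Lgr5-. Lum, Pdgfra and Pdgfrb were not well above background in any population other than Lgr5- tuft marker+. Dclk1 and Avil are also known from neurons. Of 8 glial and neuronal markers, only 6 were measured within Lgr5+ and 4 within Lgr5-. Among those measured, none was at least 2-fold higher in tuft marker+ cells in either pair, where 10.3% and 16.3% of all genes were. With so few genes measured, a count of none says little. Tubb3 was at least 2-fold lower within Lgr5+ (-1.53), where 8.19% of all genes were. Of these 8, 3 were well above background in tuft marker+ and 6 in tuft marker- cells within Lgr5+, and 4 in each within Lgr5-. Their log2 summed signal was 7.97 in tuft marker+ against 7.87 in tuft marker- cells within Lgr5+, and 8.34 in tuft marker+ against 7.41 in tuft marker- cells within Lgr5-, nearly all of it from the Elavl4 probe (levels 7.96, 7.84, 8.32 and 7.39 in that order), while the median level of the list was -3.76 to -3.03. The part of all these other cells in the differences of Dclk1, Avil, Espn and the brush border genes was not tested.

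**Figure D4:**
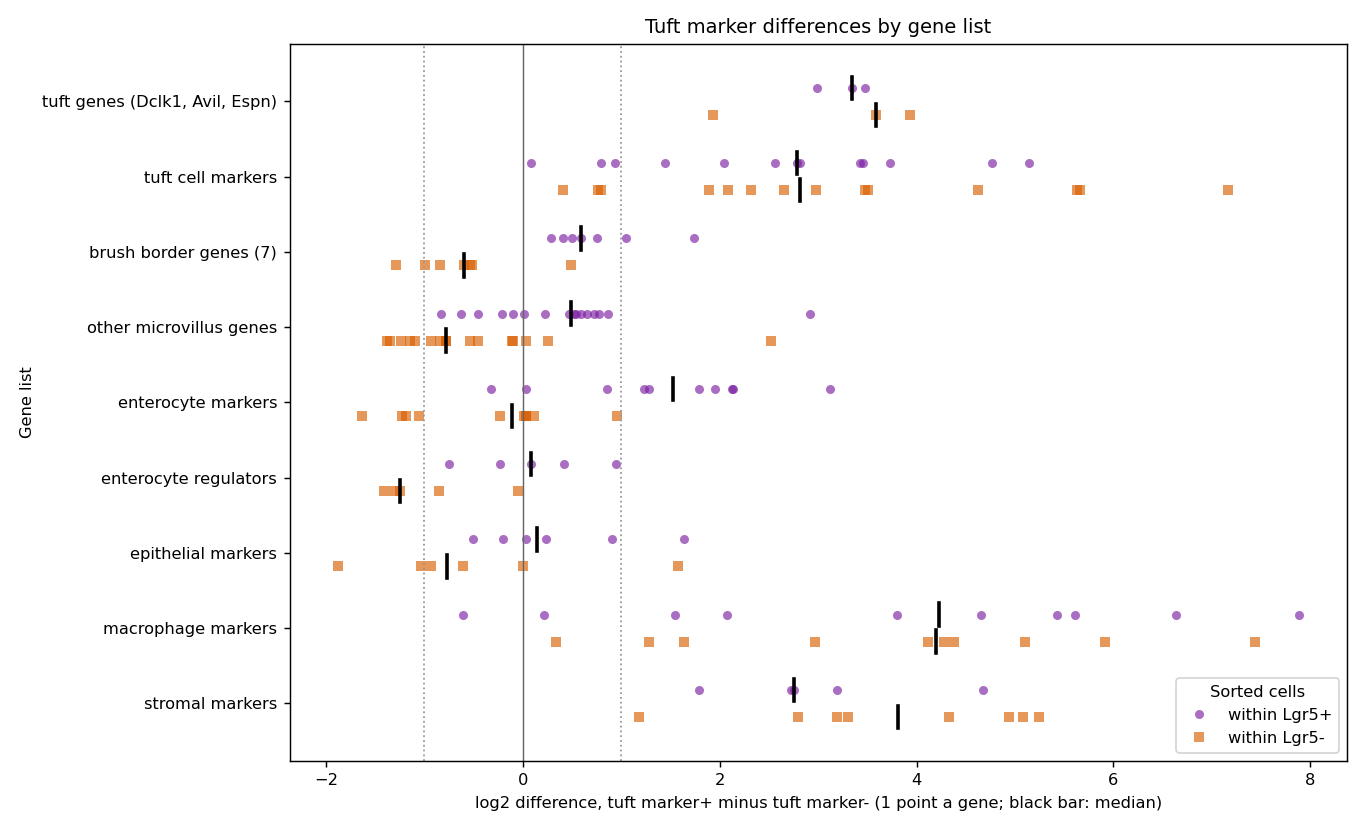
Log2 difference, tuft marker+ minus tuft marker-, of each gene of 9 lists, with 1 point a gene (a limit where one side was not above background) and a black bar at the median, within Lgr5+ (circles) and within Lgr5- (squares). The brush border genes (medians 0.59 and -0.60), the other microvillus genes (0.49 and -0.78) and the epithelial markers (0.14 and -0.77) lie lower within Lgr5-, values that depend on the scaling of the arrays, while tuft cell, macrophage and stromal markers lie to the right in both classes.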

How the data were processed

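RNA of 4 sorted populations was hybridised to 1-colour (Cy3) Agilent arrays, 1 per population, after NucleoSpin column extraction and low-input amplification of 13 ng of total RNA, per the labels' protocols. Per the file headers, Agilent Feature Extraction 12.0.3.1 subtracted background from the deposited spot intensity and removed spatial trends, and no scaling between arrays followed (the submitters' processing notes name 11.5.1.1). The same software set, per the file headers, the deposited flags (coded 0 or 1, other than a measured value) for spots well above background, outliers and saturation. The authors' own value table holds linear intensity values, each column the scanner's multiplied by 1 constant (10.9 for the Lgr5+ array with the tuft marker and 7.82 for that without, 11.9 for the Lgr5- array with it and 9.08 for that without; column medians 279, 286, 365 and 253). It is not centred by gene, and the reason for its scale is not stated in the sources used here.

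Control spots and 122, 96, 108 and 91 outlier spots (same order) were left out. All 4 arrays lay on 1 slide read in 1 scan. The intensity was taken to log2 and each array's 75th percentile subtracted. Copies of a probe were averaged, and a gene's level is that of its probe with the highest mean. Accessions were matched to RefSeq symbols, which named 32989 of 56605 probes. Differences use genes above background on at least one side, with a side not above background set at the higher of its own signal and its array's floor, the dimmest signal above background there, and the difference written as "at least". Called means at least 2-fold. With 1 array a population there is no test, and the number of arrays limits the precision. The differences and 2-fold calls were checked on simulated data, made from the signals of 1 array with added noise and changes of known size. That check did not try the rules for signals not above background.

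The members, lists and motifs were chosen with earlier results of these data known. The text names all members, up to 4 genes of each other list with the largest difference in a pair (some are not reported here), and the 5 genes most like Dclk1 and Vil1. The planned normexp correction (limma 3.58.1, offset 50) used the median spot signal, since the files used here hold no mean signal. The authors' table, other scalings, the probe rule and the filter on dim probes were the other alternatives.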

Additional observations from a re-analysis of the deposited data

Results flagged for a closer look

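Of the 7 brush border genes, 6 had a tuft marker difference (tuft marker+ minus tuft marker-, log2) of opposite sign in the 2 Lgr5 classes. The differences within Lgr5+ and within Lgr5- were 0.59 and -0.54 for Vil1, 1.05 and -0.60 for Pls1, 0.29 and -1.29 for Eps8, 0.41 and -0.84 for Myo1a, 0.50 and -0.52 for Cdhr5, and 0.75 and -0.99 for Ush1c. With arrays scaled to the epithelial markers, all of these but Eps8 (-0.22) were positive within Lgr5- too, namely Vil1 0.53, Pls1 0.48, Myo1a 0.24, Cdhr5 0.56 and Ush1c 0.08. With its probes averaged, Ush1c was negative in both classes (-0.67 and -0.75).

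In 5 brush border genes the Lgr5 difference (Lgr5+ minus Lgr5-, log2) also had opposite signs in the 2 tuft marker classes. The differences within tuft marker+ and within tuft marker- were 0.56 and -0.57 for Vil1, 0.91 and -0.73 for Pls1, 0.94 and -0.31 for Myo1a, 0.49 and -0.76 for Cdhr2, and 1.43 and -0.31 for Ush1c. With the epithelial scaling the opposite signs were lost for Cdhr2 (-0.06 within tuft marker+) and for Myo1a and Ush1c (0.12 each within tuft marker-), and with its probes averaged Ush1c was 0.83 and 0.75. Both sets of values come from the same 4 arrays, 1 per population, so they are not separate observations, and the difference between the classes was not tested. Beside them, the same difference of differences was positive in all 10 enterocyte markers measured, with a median of 1.92, and in all 6 epithelial markers, with a median of 0.88. Whether these move for the same reason was not tested.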

How the results depend on the processing

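No paired analysis was possible because each population had 1 array, and for the same reason no replicate could be left out. Over 450 values of members under 9 alternatives, 337 moved by less than the scanner's error, 113 moved by more and 21 changed sign, none of them a tuft marker difference of Dclk1, Avil or Espn (54 values). The cause of these moves was not tested. Part of the 337 was fixed in advance. The weaker background flag and the lack of a filter could not move a member, as all 10 stood well above background on every array. Averaging probes could not move the 5 members with 1 probe. Scaled to the epithelial markers, an alternative added after seeing the data, the brush border medians were 0.48 for the tuft marker difference within Lgr5-, 0.37 for the Lgr5 difference within tuft marker+, -0.14 for it within tuft marker-, and 0.27 for the difference of differences. The medians of Dclk1, Avil and Espn were then 4.66, -0.14, 1.19 and -1.23 in the same order. All genes shifted by 0.1 within Lgr5+, by 1.08 within Lgr5-, by -0.55 within tuft marker+ and by 0.43 within tuft marker-. Single values that turned were Vil1 0.53, Pls1 0.48, Myo1a 0.24, Cdhr5 0.56 and Ush1c 0.08 within Lgr5-, while Cdhr2 was 1.56 there. Scaled to the median, the brush border medians were -0.83 within Lgr5-, 1.14 within tuft marker+ and 1.58 for the difference of differences, against 3.35, 0.63 and 0.09 for the tuft cell genes. All genes then shifted by -0.23 within Lgr5-, by 0.22 for the Lgr5 pair that carries the tuft marker and by -0.11 for the Lgr5 pair without it, with 3420 genes at least 2-fold lower within Lgr5- (37% of those apart were higher, against 57.1%) and 2588 higher and 1281 lower within tuft marker+ (66.9% higher, against 43.7%). Quantile normalization shifted all genes by -0.12 within Lgr5- and 0.13 within tuft marker+. In the authors' table, whose shift was 0.30 within Lgr5- and -0.17 within tuft marker+, the medians within Lgr5- were -0.30 for brush border and 3.88 for tuft cell genes, with 4426 genes higher and 1144 lower (79.5% higher), and 28% of those apart within tuft marker+ were higher. After normexp, the tuft cell medians were 2.87 within Lgr5+, 2.80 within Lgr5-, 0.48 within tuft marker- and 0.06 for the difference of differences. Genes higher and lower were then 661 and 251 within Lgr5+ (72.5% higher, against 55.8%), 947 and 787 within Lgr5-, 370 and 392 within tuft marker+, and 132 and 166 within tuft marker- (44.3% higher, against 55.1%). With the weaker background flag and with no filter alike, 2841 genes were lower within Lgr5+, 4385 higher within Lgr5-, 3755 lower within tuft marker+, and 2327 higher and 1707 lower within tuft marker-. With all probes of a gene averaged, the tuft cell medians were 3.06 within Lgr5+, 0.20 within tuft marker+ and -0.57 for the difference of differences, and Ush1c was -0.67 within Lgr5+ and 0.75 within tuft marker-. The signal over background limited the fourth Dclk1 probe and the second Ush1c probe to bounds.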

Other observations

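Relatives of the 10 genes were measured in the same arrays. Of 14 paralogues of the members, 11 were measured in both tuft marker pairs, with a median log2 difference of 0.16 within Lgr5+ and 0.70 within Lgr5-. Of the 11, 1 and 3 were at least 2-fold higher in tuft marker+ cells, where 10.3% and 16.3% of all genes were. Lcp1, the plastin of blood cells, was 2.5 higher within Lgr5+ and 3.39 higher within Lgr5-. Vill, a villin-like gene, had 0.37 and 2.42, and Eps8l1, a relative of Eps8, 0.97 within Lgr5+ and at least 1.12 within Lgr5-. Pls3, the plastin of many solid tissues, had -0.56 within Lgr5+ and 0.83 within Lgr5-. Within tuft marker+ cells its Lgr5 difference was -2.11. Capg, an actin capping gene of macrophages, had 0.97 within Lgr5+ and -0.49 within Lgr5-. Lcp1 and Capg are also expressed in macrophages, whose markers were higher in the tuft marker+ cells, and their part in these values was not tested.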
